A study of Homo sapiens with 4 samples.

Results

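The 9 genes described here are regulators of epithelial and pancreatic identity, namely ELF3, EHF, KLF5, GRHL2, ESRP1, GATA6, FOXA2, FOXQ1 and SOX9. All probes that the array annotation pairs with these symbols were taken, without any use of their signals, which gave 11 of 47315 probes and 9 of 20044 named genes. The genes themselves were chosen with earlier results of these data known. FOXA2 had 3 probes and each other gene had 1. Their RNA was measured in SW1990 and in Panc-1, both established human pancreatic cancer cell lines, on 4 Illumina HumanHT-12 arrays, with 1 array for the CD166+ and 1 for the CD166- population of each line. CD166, encoded by ALCAM, is a cell adhesion molecule, and the cells of each line had been labelled for it and separated with magnetic beads, so that the CD166- cells were those the beads left behind. No line carried an added gene or was treated beyond this sort, and the populations therefore differ by line and by sort alone, as far as the labels say.

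ELF3 and EHF are epithelial members of the ETS family of transcription factors, and KLF5 is a Kruppel-like factor of proliferating epithelia. GRHL2, a grainyhead factor, activates genes of cell junctions, and ESRP1 is a splicing factor that selects the epithelial forms of transcripts such as those of CD44 and FGFR2. FOXA2 and GATA6 belong to the factors that open chromatin in the endoderm and the early pancreas, SOX9 marks pancreatic progenitors and the ducts of the adult organ, and FOXQ1 is a forkhead factor known from epithelial cancers and their change to a mesenchymal state.

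The 250 bases before the start of ELF3, FOXQ1 and KLF5 are shown because these genes had the higher signal in CD166+ cells of SW1990, and those of EHF because its difference was opposite. They are from RefSeq, build GRCh38.p14, and all 4 lie on the plus strand. The ELF3 stretch is chr1:202010337-202010586, that of FOXQ1 chr6:1311848-1312097, that of KLF5 chr13:73054726-73054975 and that of EHF chr11:34624007-34624256, which precedes a start inside the EHF gene. Capitals mark matches, on either strand, of the E-box CAGGTG bound by ZEB and SNAI repressors, of AGGAAG, a core of ETS factors, and of CACCC, a core of Kruppel-like factors.
ELF3: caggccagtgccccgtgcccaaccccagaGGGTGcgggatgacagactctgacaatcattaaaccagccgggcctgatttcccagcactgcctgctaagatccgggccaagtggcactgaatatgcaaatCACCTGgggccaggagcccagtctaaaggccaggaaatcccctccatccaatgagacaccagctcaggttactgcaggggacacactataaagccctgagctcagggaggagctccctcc
FOXQ1: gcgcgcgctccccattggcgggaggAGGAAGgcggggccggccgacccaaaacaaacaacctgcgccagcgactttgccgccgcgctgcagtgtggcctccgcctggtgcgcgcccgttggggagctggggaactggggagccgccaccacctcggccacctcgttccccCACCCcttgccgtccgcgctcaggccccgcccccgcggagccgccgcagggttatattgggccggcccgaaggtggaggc
KLF5: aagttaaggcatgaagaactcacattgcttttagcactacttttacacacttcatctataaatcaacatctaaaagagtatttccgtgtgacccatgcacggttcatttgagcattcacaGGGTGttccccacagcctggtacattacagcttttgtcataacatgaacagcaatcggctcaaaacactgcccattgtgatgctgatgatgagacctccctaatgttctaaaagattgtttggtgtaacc
EHF: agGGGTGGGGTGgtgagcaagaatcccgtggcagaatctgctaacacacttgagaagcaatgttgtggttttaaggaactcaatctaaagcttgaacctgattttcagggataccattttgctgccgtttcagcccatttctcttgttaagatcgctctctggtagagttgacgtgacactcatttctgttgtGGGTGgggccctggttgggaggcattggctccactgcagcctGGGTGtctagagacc

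ELF3 held 1 E-box, 120 bases before the start, a match that 17.5% of 35093 promoters of this length share. FOXQ1 held 1 AGGAAG match, 225 bases before the start, which 28.7% of promoters share. Matches of CACCC were present in all 4 sequences, 1 each in ELF3, FOXQ1 and KLF5 and 4 in EHF, of which the first 2 abut, and 54.7% of all promoters hold at least 1. Cores of GATA factors (AGATAA, in 9.17% of promoters), FOXA factors (TGTTTAC, in 2.98%), SOX factors (ACAAAG, in 13.7%) and grainyhead factors (AACCGGTT, in 0.117%) had no match in these stretches. None of the motifs searched overlaps another here, and a match describes letters and is not a site of binding. In base composition the stretches ranged from 40.8% G and C in KLF5 and 50% in EHF to 58.4% in ELF3 and 74.0% in FOXQ1, against a median of 58.0% over all promoters. The other regulators are described by their signals only. In the same build, SOX9 spans chr17:72121020-72126416, FOXA2 chr20:22580998-22585490 and GATA6 chr18:22169589-22202528, while GRHL2 and ESRP1 lie on chromosome 8.

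The signals are background-corrected intensities, quantile-normalized with an offset of 16 (neqc), and a detection p-value under 0.01 counted as detection. Per array, 15565 to 16716 probes were detected. ALCAM differed 6.20-fold between the sorted populations of SW1990 and 5.29-fold between those of Panc-1, higher in CD166+ cells each time, so both pairs ran in the labelled direction. The Panc-1 arrays had a Pearson correlation of 0.989 across 20049 probes detected on any array. The SW1990 arrays had 0.851 with each other, whereas the SW1990 CD166- array had 0.895 and 0.893 with the Panc-1 CD166+ and CD166- arrays. The SW1990 CD166- array thus stood nearer to each Panc-1 array than to its partner. For the SW1990 CD166+ array the values were 0.861 (Panc-1 CD166+) and 0.845 (Panc-1 CD166-). The former also exceeded the 0.851 of the SW1990 pair, while the latter lay below it. Probes are not independent replicates, and the correlations describe the arrays only. Of 28 probes with signals over 1000 on both Panc-1 arrays that were undetected on the SW1990 CD166+ array, 19 (67.9%) were detected on the SW1990 CD166- array. Of 42 probes over 1000 on the SW1990 CD166+ array that were undetected on the Panc-1 CD166- array, 9 (21.4%) were. In these counts undetected means a detection p-value of 0.05 or more, while detected keeps the threshold of 0.01. Every SW1990 sort result below rests on the SW1990 CD166- array and has no value without it, while the comparison of the CD166+ cells does not use it. The signals of single probes are not compared with those of other probes, and in sorted populations fewer cells with a transcript and less of it per cell cannot be told apart.

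Across the 4 arrays 7 of the 11 probes, 1 for each of 7 genes, were detected at least once, and no probe was detected on all 4. The numbers detected were 3 in SW1990 CD166+ cells (ELF3, KLF5 and FOXQ1), 2 in SW1990 CD166- cells (EHF and SOX9), 4 in Panc-1 CD166+ cells (GATA6, FOXA2, FOXQ1 and SOX9) and 3 in Panc-1 CD166- cells (FOXA2, FOXQ1 and SOX9). No regulator detected in one SW1990 population was detected in the other. Over all probes, 16190 and 15565 were detected on the SW1990 CD166+ and CD166- arrays and 18210 on at least 1 of them, so most were shared. At a threshold of 0.05, ELF3 would be detected in both populations, with a detection p-value of 0.013 in CD166- cells. In detection the Panc-1 populations differed only in GATA6, which was marginal.

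**Figure D1:**
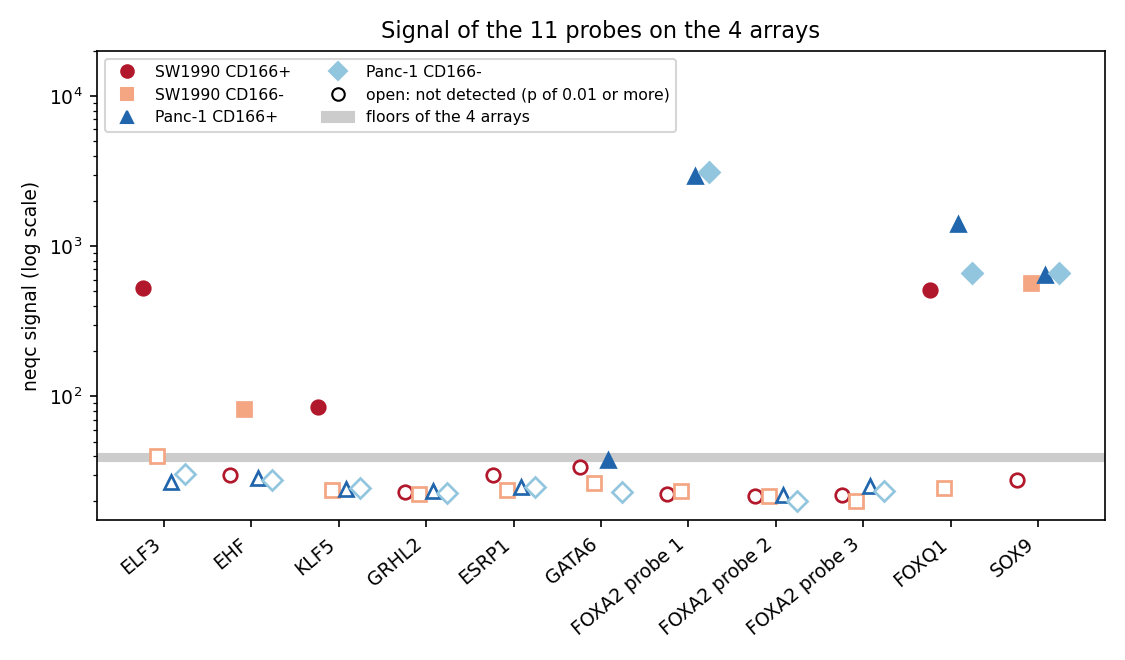
Normalized signal (log scale) of each of the 11 probes on the 4 arrays, with 1 point per array, filled where the probe was detected and open where it was not. The grey band spans the floors of the arrays, 37.4 to 41.5, and points are to be compared within a probe. ELF3 and KLF5 have a filled point only for SW1990 CD166+ cells, EHF only for SW1990 CD166- cells and FOXA2 only for Panc-1 cells.

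Among the epithelial factors, ELF3 had a signal of 530 in SW1990 CD166+ cells, 40.1 in SW1990 CD166- cells, 27.0 in Panc-1 CD166+ cells and 30.6 in Panc-1 CD166- cells. Only the first was detected, although ELF3 in SW1990 CD166- cells, with a detection p-value of 0.013, lay close to the threshold of 0.01. KLF5 had signals of 85.6, 23.9, 24.4 and 24.7 in the same order and was detected in SW1990 CD166+ cells alone, with a detection p-value of 0.0013. EHF had signals of 30.1, 82.2, 28.7 and 28.0, and it was detected in SW1990 CD166- cells alone, again with a detection p-value of 0.0013. The relatives ELF3 and EHF, which both carry the ETS domain, were thus each detected in a single population, and in opposite populations of SW1990.

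GRHL2 had signals of 23.0, 22.4, 23.6 and 22.8, and its lowest detection p-value was 0.595. ESRP1 had signals of 30.1, 23.8, 24.8 and 24.9, with a lowest detection p-value of 0.074 in SW1990 CD166+ cells. Neither was detectable on any of the 4 arrays. The same was found for their relatives GRHL1, with signals from 30.3 to 38.9, and ESRP2, with signals from 21.2 to 24.6. Each of these genes was read at 1 probe, and a silent probe does not show that its transcript is absent.

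Among the endodermal factors, FOXA2 had signals of 22.5 and 23.4 in SW1990 CD166+ and CD166- cells and of 2930 and 3136 in the corresponding Panc-1 cells at 1 of its 3 probes. Both Panc-1 arrays lay far above both SW1990 arrays and differed little from each other. The other FOXA2 probes had signals from 20.0 to 25.4 and were undetected on every array, so the FOXA2 result rests on a single probe that the other FOXA2 probes did not share. GATA6 had signals of 33.7, 26.6, 37.6 and 23.0 in the usual order and was detected in Panc-1 CD166+ cells alone, with a detection p-value of 0.0078.

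FOXQ1 had signals of 512 in SW1990 CD166+ cells, 24.6 in SW1990 CD166- cells, 1414 in Panc-1 CD166+ cells and 667 in Panc-1 CD166- cells, and was undetected in the second only. It was the single regulator with the higher signal in the CD166+ population of both lines among those detected in both lines. SOX9 had signals of 27.7 in SW1990 CD166+ cells, 565 in SW1990 CD166- cells, 646 in Panc-1 CD166+ cells and 665 in Panc-1 CD166- cells. SOX9 was undetected in SW1990 CD166+ cells alone and had similar signals on the other arrays. FOXQ1 and SOX9 were therefore each missing from 1 array, the opposite ones of SW1990.

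The first comparison asked how the regulators differ between CD166+ and CD166- cells of SW1990. With 1 array per population there is no replicate and no test, and a probe was counted when its signals differed by over 2-fold and the brighter array detected it. Where the dimmer array did not detect the probe, its signal was set to the lowest signal of a detected probe on that array, or left at its own value if higher, and the fold is a lower bound. ELF3 was at least 12.8-fold, FOXQ1 at least 12.3-fold and KLF5 at least 2.06-fold higher in CD166+ cells. SOX9 was at least 14.5-fold and EHF at least 2.10-fold higher in CD166- cells. Counted were thus 3 regulators higher in CD166+ cells and 2 higher in CD166- cells of 5 that either array detected, against 12.2% and 13.1% of all 18210 probes. Each of the 5 entered through the only array of the pair that detected it, so a difference was built in and their number is a description. Among all probes counted in the same direction, ELF3 ranked 170 and FOXQ1 181 of 2218 by fold, and SOX9 ranked 107 of 2391. KLF5, ranked 2060 of 2218, and EHF, ranked 2161 of 2391, lay near the threshold, and both fell below 2-fold without background correction, on the authors' scaled table and with an offset of 50 (log2 differences of 0.55, 0.30 and 0.66 for KLF5 and of -0.56, -0.77 and -0.67 for EHF), as EHF did with median scaling. ELF3, FOXQ1 and SOX9 stayed past 2-fold, with log2 differences of 3.67, 3.62 and -3.85 that were 2.50, 2.45 and -2.93 on the scaled table. Where a gene had several probes, their log2 folds varied with an SD of 0.44 in this comparison (1985 genes).

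In Panc-1, only FOXQ1 passed 2-fold, at 2.12-fold higher in CD166+ cells. It was 1 of 4 regulators detected on either array, and 0 were counted higher in CD166- cells, against 0.53% and 0.359% of all 17532 probes. FOXQ1 ranked 88 of 93 probes higher in CD166+ cells, and on the scaled table of the authors its log2 difference was 0.93, below 2-fold. FOXA2 differed by -0.10 and SOX9 by -0.04 on the log2 scale, within the SD of 0.22 between probes of 1 gene. For GATA6 no fold is given, since its signal in CD166+ cells, 37.6, lay below the floor of 39.0 of the CD166- array. A set of 47 probes had signals of 1000 or more on the SW1990 CD166+ array. On the Panc-1 CD166- array their detection p-values were 0.05 or more. Over these probes, the signal on the Panc-1 CD166+ array was a median of 3.01% (quartiles 2.34% and 3.24%) of that on the SW1990 CD166+ array. The source of this signal was not tested. With that share subtracted the log2 difference of FOXQ1 was 1.11 against 1.08 before. ELF3 and KLF5, both detected in SW1990 CD166+ cells, stayed undetected on the Panc-1 CD166+ array. The share was taken on background-corrected intensities without the offset. It therefore cannot be set directly against their SW1990 CD166+ signals of 530 and 85.6 or the floor of 37.4 of the Panc-1 CD166+ array. Whether their absence there bears on the share was not tested.

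The lines were then compared within each sort. In CD166+ cells, ELF3 was at least 14.2-fold and KLF5 at least 2.29-fold higher in SW1990. FOXA2 was at least 75-fold, SOX9 at least 16.5-fold and FOXQ1 2.76-fold higher in Panc-1. Of 6 regulators that either array detected, 2 were counted higher in SW1990 and 3 higher in Panc-1, against 12.3% and 12.5% of 18772 probes. All but FOXQ1 were detected on 1 array of the pair alone and could be counted only toward it. As in the SW1990 sort, a difference was thus built in and the numbers are a description. FOXA2 ranked 16 of 2355 probes higher in Panc-1. The KLF5 count was lost with an offset of 50, without background correction and on the scaled table. In CD166- cells, EHF was at least 2.11-fold higher in SW1990, FOXA2 was at least 75.5-fold and FOXQ1 at least 16.1-fold higher in Panc-1, and SOX9 differed by -0.24 on the log2 scale, within the SD of 0.38 between probes of 1 gene. Here 1 regulator was counted higher in SW1990 and 2 higher in Panc-1, of 4 detected, against 10.1% and 10% of 17833 probes. All but SOX9 were again detected on 1 array of the pair alone, so their direction was built in. FOXA2 ranked 8 of 1784. The EHF count was lost without background correction, on the scaled table, with median scaling and with an offset of 50. Both line comparisons and both sort comparisons share arrays and are not independent of each other.

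**Figure D2:**
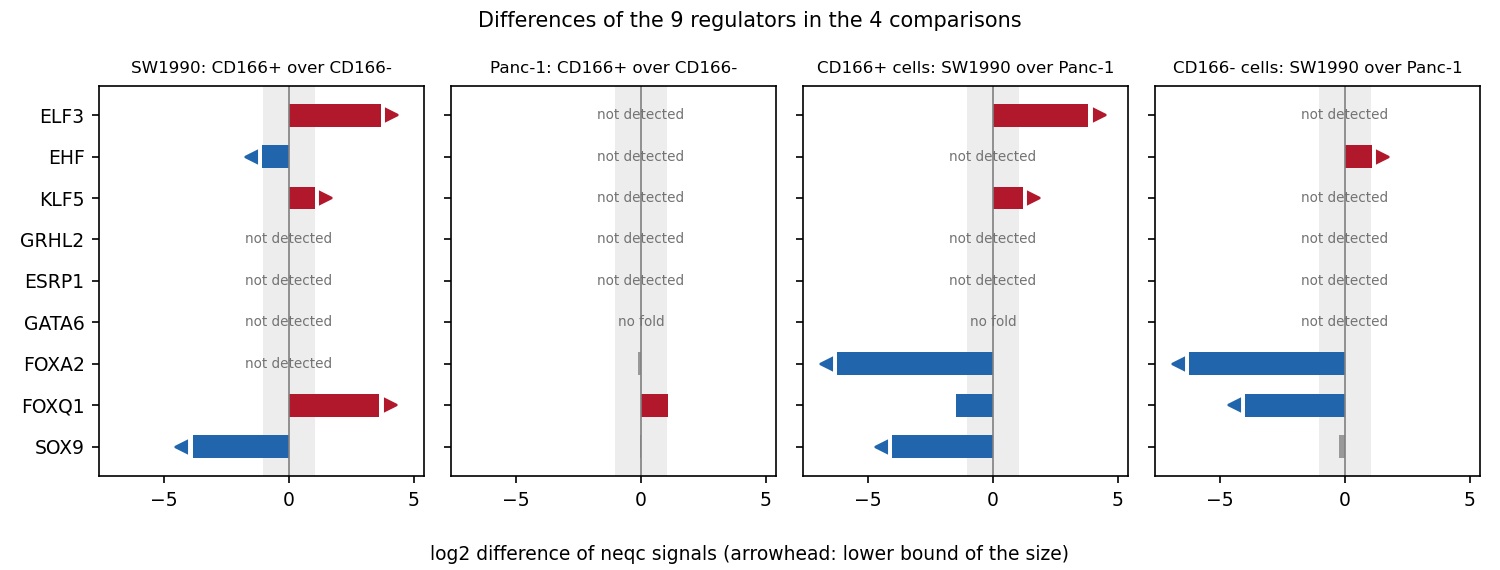
Log2 difference of each regulator in the 4 comparisons, with red bars for the population named first and blue bars for the other. Arrowheads mark bounds where 1 array did not detect the probe, grey bars differ by less than 2-fold, the grey zone spans 2-fold, and FOXA2 is shown by its detected probe. FOXQ1 has a red bar in both sort comparisons, while ELF3, EHF, KLF5 and SOX9 have bars past 2-fold between the sorts in SW1990 only.

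The regulators of Panc-1 differed among themselves on the SW1990 CD166- array, whose correlations with the Panc-1 arrays were 0.895 and 0.893. SOX9, detected on both Panc-1 arrays, had a signal of 565 there, close to the 646 and 665 of Panc-1. FOXA2 and FOXQ1, also detected on both Panc-1 arrays, had signals of 23.4 and 24.6 there and were undetected. GATA6, detected on the Panc-1 CD166+ array alone and marginal there, had 26.6 on the SW1990 CD166- array and was undetected too. As given above, 19 of 28 probes strong in Panc-1 and undetected in SW1990 CD166+ cells were detected on this array. The part of Panc-1 RNA in either result was not tested. EHF, with 82.2 on that array, was undetected on the other 3.

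Both lines were fitted together with limma, with line and sort as terms, over the 20049 probes that at least 1 array detected. Undetected signals entered as measured, and 1 residual degree of freedom was left. For the sort, limma with Benjamini-Hochberg adjustment called 0% of the probes at an adjusted p under 0.05 (0 probes, 726 at an unadjusted p under 0.05, lowest adjusted p = 0.0755), and 0 of the 7 detected regulators. FOXQ1 had a log2 fold of 2.73 (SE 0.73), higher in CD166+ cells in 2 of 2 lines, with adjusted p = 0.960 by limma and an unadjusted p of 0.0066. SOX9 had -2.20 (SE 0.89) with adjusted p = 0.960 by limma and an unadjusted p of 0.041, and its value was -4.35 in SW1990 and -0.04 in Panc-1. ELF3 had 1.77 (SE 0.83), KLF5 0.91 (SE 0.53), EHF -0.71 (SE 0.49), GATA6 0.53 (SE 0.42) and FOXA2 -0.08 (SE 0.41), with limma's adjusted p between 0.960 and 0.989. Without SW1990 the values of ELF3, KLF5 and EHF were -0.18, -0.02 and 0.04, so the joint values of these 3 came from SW1990. Whether the effect of the sort differed between the lines has no test, because that term would leave no residual degree of freedom. An exact permutation test over 2 pairs could not go below p = 0.5.

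For the line, limma called 0.394% of the 20049 probes higher in SW1990 and 1.66% higher in Panc-1, 79 and 332 probes. FOXA2 was the single regulator of 7 that was called, with a log2 fold of -7.05 (SE 0.41) for SW1990 over Panc-1 and adjusted p = 0.00129 by limma. Its value was -7.02 in CD166+ and -7.07 in CD166- cells. The call was lost when all probes were tested (limma adjusted p = 0.245) and by the t-test that the methods name (adjusted p = 0.0938). FOXQ1 had -3.11 (SE 0.73, limma adjusted p = 0.0911), and it was called on the scaled table (limma adjusted p = 0.0471). SOX9 had -2.39 (SE 0.89) and ELF3 2.34 (SE 0.83), with limma's adjusted p = 0.276 and 0.244. In CD166+ cells their values were -4.54 and 4.29, and in CD166- cells -0.24 and 0.39. No source used here says that a population was prepared more than once, so these p-values measure the spread between these arrays, which come from 2 lines.

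Genes related to these regulators were examined by lists, with each gene represented by its probe of the highest mean signal. Of 27 genes of the same families, 11 were detected on an array of SW1990. There, 3 were over 2-fold higher in CD166+ and 3 in CD166- cells with a median log2 difference of 0.14, against 1462 and 1530 of all 10783 genes with a median of -0.03. SOX8, a SOX factor closely related to SOX9 and SOX10, had signals of 28.4 and 761 and was higher in CD166- cells by at least 19.5-fold. Higher in CD166- cells were also the Kruppel-like factors KLF6, with signals of 287 and 3675 (12.8-fold), and KLF2, with 203 and 2344 (11.5-fold), opposite to KLF5. On the scaled table the counts toward CD166+ and CD166- cells were 1 and 3 of 11, with a median of 0.0049, and they were 2 and 3 without background correction and with an offset of 50. In SW1990, FOXA1, the partner of FOXA2 in endoderm, had a signal of 162 in CD166+ cells against 34.4, at least 3.89-fold apart, and it was undetected in Panc-1, where FOXA2 was detected. In Panc-1, 0 of 14 family members passed 2-fold, with a median of -0.17, where over all genes 63 and 43 of 10532 passed it toward CD166+ and CD166- cells.

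Between the lines the family members split as well. GATA5, another endodermal GATA factor, had signals of 22.7 and 24.9 in SW1990 CD166+ and CD166- cells, against 745 and 955 in the Panc-1 populations, and was detected in Panc-1 only, at log2 differences of -4.25 or below in CD166+ and -4.52 or below in CD166- cells. FOXA1 and SOX17, a regulator of endoderm, were higher in CD166+ cells of SW1990 than in those of Panc-1, at log2 differences of at least 2.11 and 1.33. In CD166+ cells 3 of 14 were over 2-fold higher in SW1990 and 3 in Panc-1, and in CD166- cells 2 and 3, against 1429 and 1577 of 11119 and 1132 and 1299 of 10694 genes. For the CD166+ cells these counts became 0 and 2 on the scaled table, where FOXA1 and SOX17 were no longer counted, and 1 and 2 without background correction and with an offset of 50.

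Of the other pancreatic regulators 6 were detected in SW1990, with a median of -0.15. None passed 2-fold toward CD166+ cells, and 1 passed it toward CD166- cells, MNX1, a homeobox factor of the pancreas, at 2.28-fold, with signals of 138 and 315, a count that was lost with median scaling and without background correction. Over all genes 1462 and 1530 of 10783 passed 2-fold in these directions. HES1, a target of Notch signaling, had a log2 difference of -0.88, and ONECUT2, a cut homeobox factor, of 0.65. In Panc-1, 0 of 6 passed 2-fold (63 and 43 of 10532 over all genes), with a difference of 0.50 for HES1. Between the lines, PDX1, which is needed for the pancreas to form, was undetected in SW1990, with signals of 23.3 and 31.0, and had 146 and 150 in Panc-1, with log2 differences of -1.90 or below and -1.86 or below. It was detected on the same arrays as FOXA2. ONECUT2 was higher in SW1990, by 2.34 in CD166+ and 1.81 in CD166- cells on the log2 scale, as was MNX1, by 1.45 and 2.94.

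Among epithelial genes, which include those of junctions and of polarity, 19 were detected in SW1990, of which 10 passed 2-fold toward CD166+ cells and 1 toward CD166- cells, and the median log2 difference was 1.35. Over all genes these numbers were 1462 and 1530 of 10783, with a median of -0.03. All 19 epithelial genes were detected on the CD166+ array and 11 on the CD166- array. Those detected on the CD166+ array alone, such as MAL2, AP1M2 and CRB3, could be counted only toward CD166+ cells. That part of the split was built in. JUP, the junction protein plakoglobin, had a signal of 1136 in CD166+ cells against 77.5, a 14.7-fold difference. MAL2, a protein of apical transport, was at least 9.45-fold, AP1M2, an epithelial clathrin adaptor subunit, at least 7.54-fold, and CRB3, an apical polarity protein, at least 6.38-fold higher. With the scaled intensities the counts toward CD166+ and CD166- cells were 7 and 1 of 19, and the median was 0.62. CDH1, which encodes E-cadherin, was undetected on all 4 arrays, with signals of 35.4, 29.3, 23.4 and 25.4 in the usual order. This rests on 1 probe and does not show that the transcript is absent. In Panc-1, 0 of 15 epithelial genes passed 2-fold toward CD166+ cells and 1 toward CD166- cells, CDS1, an enzyme of phospholipid synthesis, at 2.50-fold, and the median was -0.06. This count fell to 0 without background correction, on the scaled table and with an offset of 50. EPCAM, an epithelial adhesion molecule, had signals of 293 and 178 in CD166+ and CD166- cells of Panc-1, a log2 difference of 0.72.

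Ductal markers had 4 of 8 detected genes higher in CD166+ cells of SW1990 and 0 higher in CD166- cells, with a median of 1.06, against 1462 and 1530 of 10783 genes. Among these was KRT7, a keratin of ducts, with signals of 1991 and 58.9 (33.8-fold). KRT19, KRT18 and the mucin MUC1 were 2.51-fold, 2.32-fold and 2.32-fold higher. These 4 counted markers were detected on both SW1990 arrays. Of the 8, all were detected on the CD166+ array and 5 on the CD166- array. SOX9, itself a ductal factor, was higher in the other population. In Panc-1, KRT7 had signals of 212 and 33.5 and was higher in CD166+ cells by at least 5.45-fold, as 1 of 6 ductal markers, against 63 of 10532 genes. With the SW1990 CD166+ share described above subtracted, 1 of 6 was still counted.

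Targets of ESRP splicing were measured at 1 probe each, and which splice forms a probe reads was not checked. Of 6 detected in SW1990, 1 was higher in CD166- cells, CD44, with signals of 1940 and 12239 (6.31-fold), and in Panc-1 0 of 6 passed 2-fold, against the shares of all genes given above. Regulators of the epithelial-mesenchymal transition had 4 of 12 genes detected in SW1990, of which PRRX2, a paired homeobox factor, had signals of 23.4 and 984 and was higher in CD166- cells by at least 25.2-fold. TWIST2, a basic helix-loop-helix factor, was higher in CD166+ cells by at least 2.18-fold. The count of TWIST2 was lost without background correction, on the scaled table and with an offset of 50. ZEB1, a repressor of epithelial genes, was undetected on all 4 arrays, with signals from 21.4 to 27.2. This too rests on 1 probe and does not show absence. VIM, the mesenchymal filament protein vimentin, had signals of 3708 in SW1990 CD166+ cells, 14717 in SW1990 CD166- cells, 17833 in Panc-1 CD166+ cells and 19761 in Panc-1 CD166- cells. It was detected on all 4 arrays, and its lowest signal was on the array where ELF3, KLF5 and FOXQ1 were detected.

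**Figure D3:**
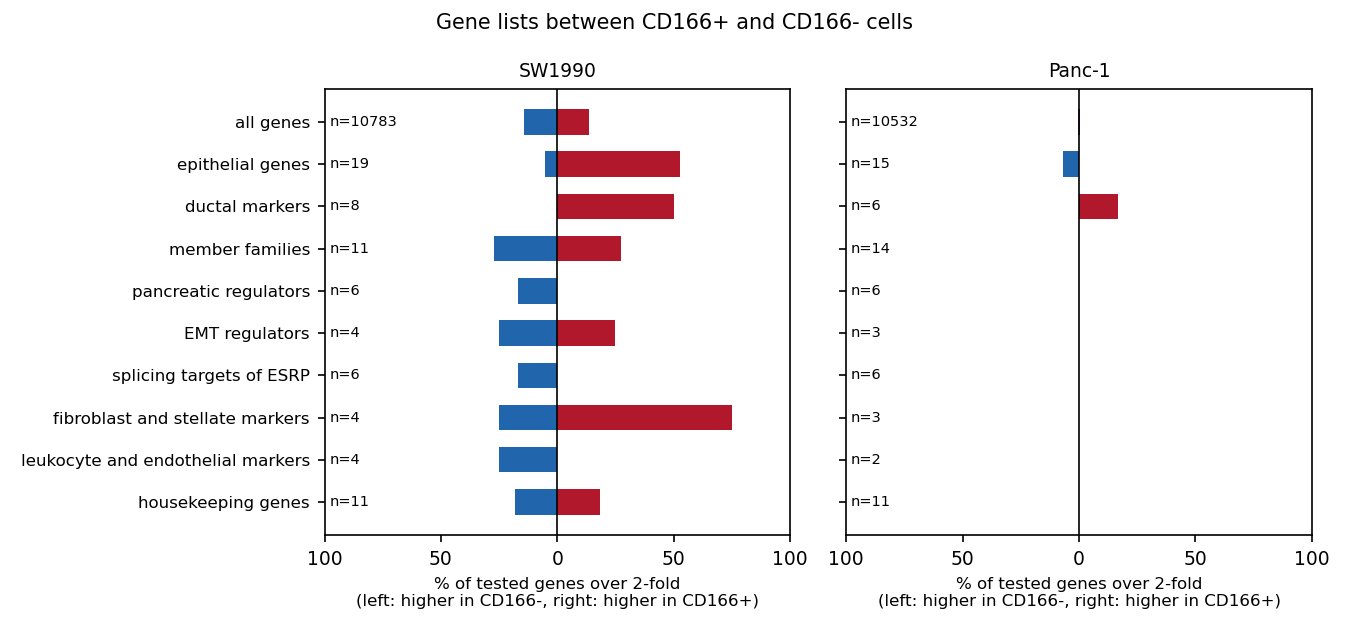
Share of the detected genes of each list that were over 2-fold apart between CD166+ (right, red) and CD166- (left, blue) cells of SW1990 and Panc-1, with the number of genes detected on either array beside each bar. The epithelial and ductal bars of SW1990 point mostly to CD166+ cells (10 of 19 and 4 of 8 genes). In Panc-1 1 gene in each passes 2-fold, the epithelial gene toward CD166- cells and the ductal marker toward CD166+ cells. A gene detected on 1 array of a pair alone can count only toward that array.

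Markers of other cell types were measured beside these results. Of 12 fibroblast and stellate cell markers, 3 and 1 were detected on the SW1990 CD166+ and CD166- arrays and 3 on each Panc-1 array, with summed signals of 905, 2439, 788 and 731 in the usual order. COL1A2, of type I collagen, had a signal of 2148 in SW1990 CD166- cells against 24.3 in the CD166+ cells, a difference of at least 55-fold. ACTA2, smooth muscle actin, COL1A1, the other type I collagen chain, and PDGFRB, a growth factor receptor, were at least 7.90-fold, 5.24-fold and 3.16-fold higher in CD166+ cells. These 3 became 2 on the scaled table and without background correction. COL3A1, DCN and LUM were undetected on all 4 arrays. Of 11 leukocyte and endothelial markers 2 or 3 were detected per array, with summed signals of 678, 1178, 1487 and 1486, and the leukocyte antigen PTPRC was undetected on all. CD68 and CD14 of this list were detected on all 4 arrays, CD68 with signals of 387, 860, 1203 and 1209. In SW1990, 0 of 4 detected markers passed 2-fold toward CD166+ cells and 1, CD68, toward CD166- cells, at 2.22-fold. That count was lost with median scaling. Acinar and islet markers, which include PRSS1 and INS, had 0, 1, 1 and 1 of 12 detected, with summed signals of 298, 324, 319 and 331, the 1 being SYP. Housekeeping genes had 11 of 11 detected on each array, and in SW1990 2 were over 2-fold higher in each population, against 0 of 11 in Panc-1. The part of other cells in the differences of the regulators was not tested.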

How the data were processed

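Total RNA of 4 sorted populations was amplified, labelled with biotin and hybridised to Illumina HumanHT-12 v4 arrays, 1 per population. Per the labels, the authors used BeadStudio 3.2.3, and the intensity they deposited for each of the 47315 probes is not normalized. Detection p-values, deposited by the authors beside them, compare each probe with the negative controls of its array. A further table deposited by the authors holds the same intensity values, each array multiplied by 1 factor to a common mean. How the factor was chosen is not given in the sources used here.

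These intensities were passed through neqc of limma 3.58.1 (R 4.3.3), with the background fitted from the detection p-values, an offset of 16 and quantile normalization. The number of arrays limits the precision. The platform annotation gave 30111 probes 1 gene, 8 several and 17196 none, and 39 gene numbers were not found in the RefSeq table of GRCh38.p14. Within a line or sort, probes were counted over 2-fold with no test. Over all arrays, limma's lmFit and eBayes were fitted with line and sort as terms and Benjamini-Hochberg adjustment over 20049 probes. The line is a block because both arrays of a pair come from 1 cell line. On simulated data of 20049 probes, all given the same noise SD of 0.303, the fit for the sort called 38% of log2 changes of 1 and 100% of log2 changes of 3. On the real arrays the residual spread differs between probes, with SEs for the sort of 0.41 for FOXA2 and 0.89 for SOX9. With 1 residual degree of freedom, that spread is not array noise alone. It also holds any difference of the sort effect between the lines, as for SOX9, at -4.35 in SW1990 and -0.04 in Panc-1. The simulated shares therefore do not give the power of the real fit.

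The members and the gene lists were chosen with earlier results of these data known. All member probes are named, and from each other list at most 4 genes per comparison, those with the largest difference. ALCAM is named as the check of the sort, and CDH1, ZEB1, GRHL1, ESRP2 and VIM were named in addition, as were undetected markers of other cell types. The settings varied were the background correction, the offset (50), the scaling (by medians, or the authors' scaled values), the detection threshold (0.05), the filter on dim probes, the value of undetected sides, the choice of 1 probe per gene, the SW1990 CD166+ share, the block, the intensity trend and the test itself. Promoter sequences and motif shares come from RefSeq starts, of which the table held 7 of the 9 genes, and SOX9 and FOXA2 have no sequence here.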

Additional observations from a re-analysis of the deposited data

How the results depend on the processing

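No counted difference of a regulator reversed its direction in any alternative. The 2 regulators higher in SW1990 CD166- cells became 1, SOX9, without background correction, on the scaled table, with median scaling and with an offset of 50. The count in Panc-1 CD166+ cells fell from 1 to 0 on the scaled table. Of the 2 higher in SW1990 among CD166+ cells, 1, ELF3, stayed without background correction, on the scaled table and with an offset of 50. The 1 higher in SW1990 among CD166- cells, EHF, became 0 with these settings and with median scaling. In the limma fit for the line, the 1 regulator called became 0 over all probes and by the methods' t-test, and 2 on the scaled table. The 411 probes called for the line became 146 without the sort as a term (no replicate block), 57 without background correction, 0 over all probes and 0 by the t-test. With no replicate block, that is with the line left out of the fit for the sort and the sort left out of the fit for the line, limma called 0 regulators for the sort and 1, FOXA2, for the line, so the pairing changed no call of a regulator. The share of counted probes higher in CD166+ cells of SW1990 was 48.1%, and 65.6% with median scaling. In Panc-1 it was 59.6%, and 79.7% without background correction, 75.9% on the scaled table and 72.0% with an offset of 50. Between the lines the share higher in SW1990 was 49.5% in CD166+ cells (36.3% on the scaled table, 66.4% with median scaling) and 50.1% in CD166- cells (34.7% on the scaled table). The median log2 difference of all probes between the sorts of SW1990 was -0.03, -0.21 on the scaled table and 0.17 with median scaling. Signals near the background, those of KLF5, EHF and GATA6 above all, limit what these arrays can show. The cause of these changes was not tested.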
